A study of Homo sapiens with 4 samples.

Results

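CHCHD2 is the gene described here, 1 of 1673 genes whose transcripts could be tied to a symbol in the deposited tables and 1 of 66138 genes and single transcripts in all. It was chosen by its measured values, since it was abundant in the ribosome-bound RNA and nearly without reads in the input. Its ratio of IP to input is therefore given as a description, with no test. The data come from translating ribosome affinity purification followed by RNA sequencing (TRAP-seq) at day in vitro (DIV) 28.

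The libraries are 3 immunoprecipitates (IPs) from 3 independent differentiation experiments and 1 input, against which they are set. All 4 came from RUES2, a line of human embryonic stem cells, carrying a lentiviral transgene, ATOH1-EGFP-L10a, in which a human ATOH1 enhancer drives an EGFP-tagged ribosomal subunit. The transgenic lines were clonal, and the sources do not say which clone gave each library. All cultures were patterned with SB431542, LDN-193189, CHIR99021, bFGF, BDNF and BMP7 under puromycin, and cycloheximide was added before lysis. The IPs were taken with the GFP antibodies 19C8 and 19F7, which enriches RNA on the ribosomes of cells that use the ATOH1 enhancer. No library lacking the transgene was analysed here.

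The labels and the deposited tables disagree on which library is the input. The title of the sample labelled input carries both tags, T106 and T113, and the table deposited under it is tagged T106. The table tagged T113 was deposited under a sample labelled IP. The 3 libraries tagged T106 were taken as IPs, numbered as in their tags, and the library tagged T113 as the input. To see which library had served as the input of the study's own table, 1451 of its genes were searched afresh with each library in that place, for a transcript with the same log2 ratio (within 0.01) and the same mean count (in steps of 1%) up to an overall scale. With T113 as the input, 337 genes were matched at the best scale (median over scales 71), and with a T106 library as the input 26 to 37 were (medians 10 to 11). ATOH1 had 37.8, 50.6 and 44.1 TPM (reads scaled for transcript length and library) in the IPs, against 0.304 TPM in the input. The tag also differs between the IPs and the input, and the labels do not say what a tag stands for, so a difference between bound and total RNA and a difference between cultures cannot be told apart.

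The libraries held 34603230 to 37719839 estimated counts in the IPs and 41173019 in the input. The 6 genes of the ATOH1 lineage list (ATOH1, BARHL1, NHLH1, INSM1, MEIS2 and CNTN2) were higher in every IP than in the input. Their levels summed to 326 to 356 CPM (counts scaled to library size) in the IPs, against 49.6 CPM in the input. Every IP was above the input in 29.3% of all genes and transcripts tested and in 51.9% of the tied genes. Every IP was below it in 33.4% and 48.1%. Names come only from rows with small p-values in the study's own test, so these marker counts are not independent evidence of direction. The few tied genes of the endothelial and mesenchymal lists were higher in the input, and those of the glial list were mixed. Markers outside the lists were not examined. ADGRL4 and TM4SF1, the 2 tied genes of 5 on the endothelial list, summed to 97.3 to 103 CPM in the IPs, against 1283 CPM in the input, and COL1A1, the 1 tied gene of 5 on the mesenchyme and neural crest list, had 951 to 1126 CPM in the IPs, against 2878 CPM in the input. The 3 tied genes of 5 on the glial list summed to 144 to 183 CPM in the IPs, against 320 CPM in the input, a sum carried by SOX9 (mean of 87.5 CPM in the IPs, against 306 CPM in the input), while SOX2 (40.8 CPM in the IPs, against 3.63 CPM in the input) and FABP7 (36.6 CPM in the IPs, against 10.9 CPM in the input) were above the input in every IP. LIN28A, the 1 tied gene of 5 on the pluripotency list, had 12.1 to 20.3 CPM in the IPs, against 2.14 CPM in the input. The part of these cells in the level of CHCHD2 was not tested. In bulk libraries, fewer cells of a type and less RNA per cell cannot be told apart.

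CHCHD2 encodes a small protein of the mitochondrial intermembrane space with a coiled-coil-helix-coiled-coil-helix domain, whose paired cysteine motifs (the twin CX9C pattern) are oxidised by the import machinery around CHCHD4 and AIFM1. In mitochondria it is associated with the MICOS complex, which shapes the cristae, and with respiration. In the nucleus it has been described as an activator of the respiratory chain gene COX4I2 with the transcription factor RBPJ, and mutations of the gene have been linked to Parkinson's disease. Most tissues with active respiration express it.

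In the hg19 build, to which the study's transcripts belong, GENCODE places CHCHD2 on the minus strand of chromosome 7, from 56169266 to 56174169, with 4 exons that span 56174057-56174169, 56171919-56172168, 56170560-56170704 and 56169266-56169554. No other protein-coding gene overlapped it. The nearest were NUPR2, 8205 bases away, and PHKG1, 8577 bases away. The 250 bases before the start of the gene, as RefSeq gives them in build GRCh38.p14 (chr7:56106477-56106726, minus strand), are shown as the reference sequence upstream of the gene. The letters of an ETS-type motif are in capitals. Whether the transcript measured here starts at the same base was not examined.
CHCHD2: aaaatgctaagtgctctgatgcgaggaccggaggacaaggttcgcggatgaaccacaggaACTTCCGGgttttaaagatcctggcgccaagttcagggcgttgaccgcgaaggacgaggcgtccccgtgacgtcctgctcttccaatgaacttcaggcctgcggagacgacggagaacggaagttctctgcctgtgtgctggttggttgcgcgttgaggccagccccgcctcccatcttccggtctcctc
The letters CCGGAAGT, searched on both strands, occurred 1 time in this window, beginning 190 bases before the gene, and in 3.42% of 35116 promoter windows of the same length. Also searched on both strands and not in this window were the CRE letters TGACGTCA (in 1.65% of windows), the E-box letters CACGTG (6.34%) and CAGCTG (14.0%), and the NRF1-type letters CGCATGCGC (1.64%). The window held 21 CpG dinucleotides, against a median of 11 over all windows, and 69.8% of windows held fewer. These matches describe the reference letters and say nothing of which factor acts there.

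A single transcript, uc003tsa.3, carried CHCHD2 in the deposited tables. Its length was 815 bases and its effective length, the number of positions at which a fragment can start, was 566. The estimated counts were 7857, 8195 and 9605 in IP replicates 1, 2 and 3 while the input held 4. They were whole numbers in all 4 libraries. On the per-length scale CHCHD2 had 457, 449 and 497 TPM in the IPs, against 0.25 TPM in the input. The 3 IPs lay close together and the input lay far below all of them.

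**Figure D1:**
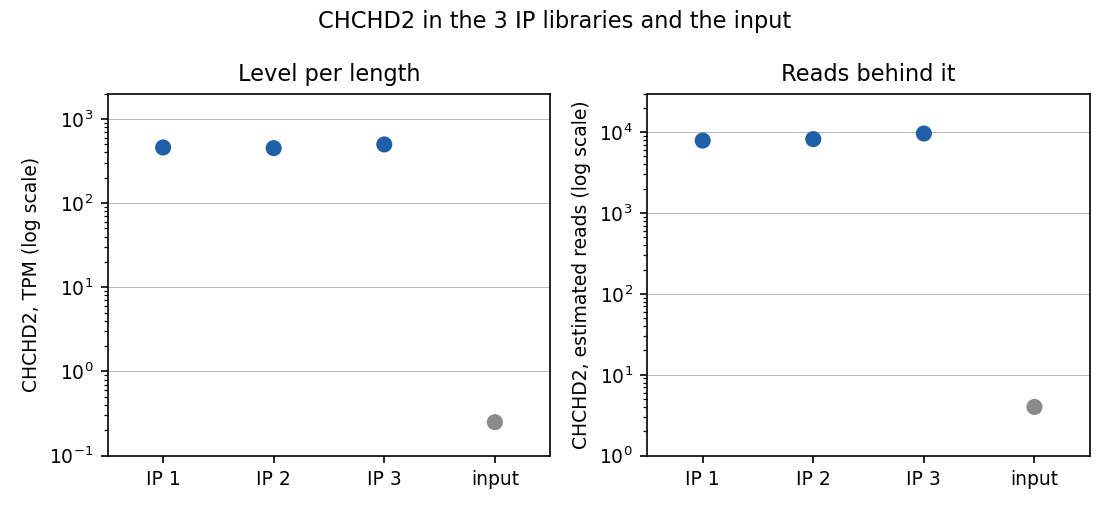
CHCHD2 in IP replicates 1 to 3 and in the input, as TPM on the left and as estimated reads on the right, both on log axes, with 1 point per library. The IPs sit at 449 to 497 TPM on 7857 to 9605 reads, and the input sits at 0.25 TPM on 4 reads.

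After scaling by trimmed mean of M-values (TMM), the level of CHCHD2 was 219, 222 and 260 CPM in the IPs, against 0.0988 CPM in the input. The mean over the IPs was 234 ± 22.6 CPM (SD, n = 3). IP replicates 1, 2 and 3 were 2220, 2247 and 2629 times the input, on average 2365 ± 229 times (SD, n = 3). These ratios all rest on the same 4 input reads. Their 95% exact Poisson interval of 1.09 to 10.2 reads puts the ratio between 924 and 8680, which covers counting error of the input only. At the mean IP level, the input would have held 9461 reads of CHCHD2. On the TPM scale the mean ratio was 1871 ± 102 (SD, n = 3). If the labels' own assignment of the input is taken, the ratio of CHCHD2 becomes 0.732, since a T106 library with 7857 of its reads then stands as the input.

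By CPM, CHCHD2 ranked 723, 752 and 638 among all genes and transcripts in IP replicates 1, 2 and 3 and 39925 in the input, where 45400 of them had a read. By TPM it ranked 334, 344 and 321 in the IPs, against 34895 in the input. CHCHD2 was thus among the more abundant transcripts of each IP library and in the tail of the input.

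The spread among the IPs was not a criterion in the choice of the gene. It is not independent of it, since names come from rows with small p-values, which depend on that spread. The coefficient of variation of CHCHD2 over the 3 IPs was 9.68%, of which counting alone would give 1.08%. The 1370 other genes and transcripts within 2-fold of its mean IP level had a median coefficient of variation of 8.17% (interquartile range 5.25% to 12.2%), and 61.4% of them varied less. Among the 400 other tied genes in that range of levels, the median was 6.98% (interquartile range 4.76% to 10.1%), and 73.2% varied less. The value of CHCHD2 lay inside both interquartile ranges, near the upper end of the one for tied genes.

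ATOH1 and GAPDH give a scale for this ratio. The input level of CHCHD2 was 0.0423% of its mean IP level (Poisson interval 0.0115% to 0.108%). That of ATOH1, the transcription factor whose enhancer drives the tag, was 0.544% (0.219% to 1.12%) on 7 input reads. The IP level of ATOH1 was 184 ± 29.6 times its input level (SD, n = 3). GAPDH, a glycolytic enzyme gene, had an IP mean of 1512 ± 143 CPM (SD, n = 3), against 2699 CPM in the input, so its input level was 178% of its IP level.

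Rows beside CHCHD2 in the deposited tables were examined for reads that might belong to the same locus. The tables do not name the genes of these rows, and none of the 10 neighbouring transcripts was tied to a symbol. The row after it, uc003tsb.3, of 600 bases, had 12.7, 10.7 and 12.9 TPM in the IPs, against 5.95 TPM in the input, on 135, 121 and 155 reads in the IPs, against 59 reads in the input. It was the only one of the 10 with at least 10 reads in every IP, and its mean IP count was 2.32 times its input count. The row before it, uc011kdd.2, had 2.5, 1.26 and 0 reads in the IPs, against 11.8 reads in the input. The other 8 held at most 3 reads in any library. The near-absence of reads in the input was thus seen for the CHCHD2 transcript and not for uc003tsb.3. Whether uc003tsb.3 belongs to CHCHD2 or to another gene is not known, so this is not a contrast between isoforms of CHCHD2.

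Copies of the gene could share its reads. GENCODE lists 10 CHCHD2 pseudogenes. Of the 723 stretches of 75 bases (the read length) in the 797-base GENCODE transcript of CHCHD2, 95 (13.1%) also occurred without a mismatch in an annotated transcript of another gene, and these were the 3 pseudogenes CHCHD2P2, CHCHD2P6 and CHCHD2P9. The other stretches occurred in no annotated transcript of another gene, on exact matches only. How the study's transcript set treats these copies is not given in the sources used here, and their reads were not separated.

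Other genes and transcripts showed this combination at lower mean levels, the closest at 222 CPM in the IPs, against 234 CPM for CHCHD2. Of 12474 with a mean of at least 10 CPM in the IPs, 141 had 5 or fewer estimated reads in the input. Of the same 12474, 116 had a smaller ratio of input to IP than CHCHD2. Among these 116 were 68 with no read in the input, whose ratio is 0 at any IP level. Of 1937 genes and transcripts with a mean of at least 100 CPM in the IPs, 4 had 5 or fewer estimated reads in the input. CHCHD2 had the highest mean level of these 4, and the other 3 had a smaller ratio of input to IP. The other 3 were single transcripts that were tied to no symbol. They were uc002knk.3 with 138, 260 and 270 CPM in the IPs, against 3.8 reads in the input, uc010zjp.2 with 153, 193 and 178 CPM in the IPs, against 0 reads in the input, and uc011ccb.2 with 119, 128 and 105 CPM in the IPs, against 0.01 reads in the input. A single transcript can be 1 isoform of a gene whose other isoforms carry the reads, which the tables do not show. Of the 593 tied genes at or above 100 CPM in the IPs, CHCHD2 alone had 5 or fewer input reads, and the median ratio of IP to input over these genes was 1.93. That CHCHD2 passed these limits follows from the way it was chosen. Of the 1527 tied genes at or above 10 CPM, 8 had 5 or fewer input reads, CHCHD2 among them. In 3 of the 1527 the ratio of input to IP was smaller than that of CHCHD2. These were HOXA7, CTSF and HOXB5, which had 0 reads in the input. At a floor of 3 input reads their IP levels were at least 295, 227 and 158 times the input. Their order against CHCHD2, at 2365 times, is therefore not known. Besides CHCHD2, 17 tied genes with at least 1 CPM in the IPs had 5 or fewer input reads, and their mean IP levels were 3.61 to 41.2 CPM. Tied genes are not a sample of all genes, since their names come from the rows with the smallest p-values of the study's own test on these libraries.

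**Figure D2:**
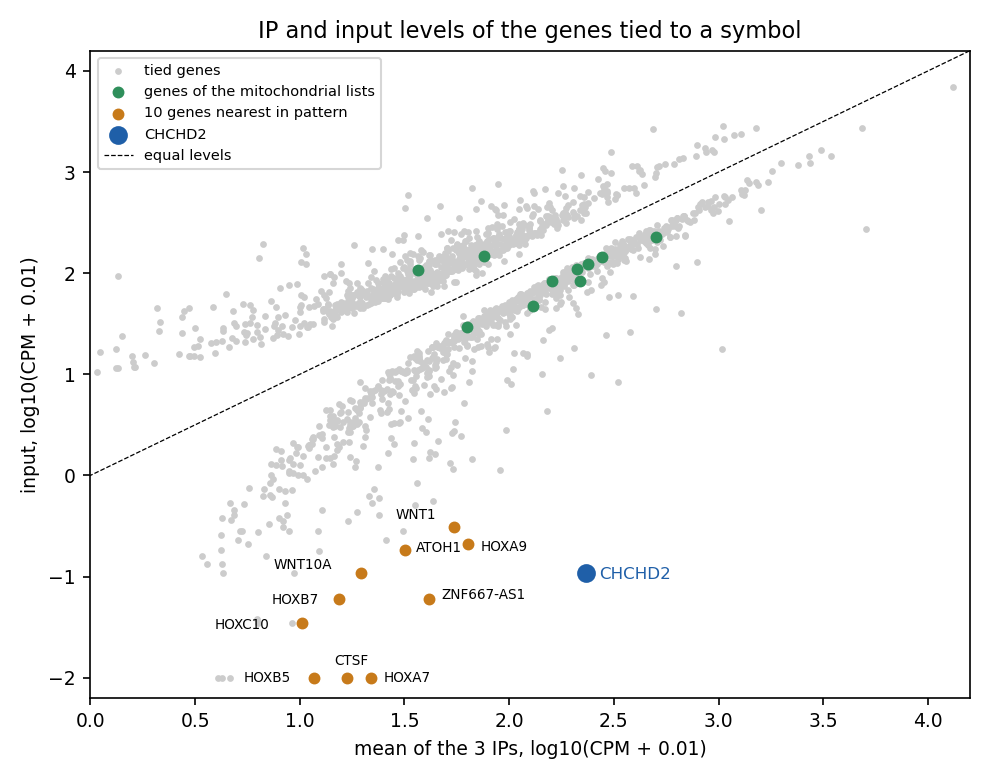
Mean level of the 3 IPs (x axis) and level of the input (y axis) of the tied genes, both as log10(CPM + 0.01), with 1 point per gene from 1 CPM in the IPs up and a dashed line of equal levels. CHCHD2, at 234 CPM in the IPs, against 0.0988 CPM in the input, lies to the right of the 10 genes nearest to it in pattern, whose IP means are 10.2 to 63.6 CPM.

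Genes that work with CHCHD2 or share its protein fold were then compared between the IPs and the input. Lists of the twin CX9C family, the MICOS complex with outer membrane partners, the small TIM chaperones (which escort proteins across the intermembrane space) and the import and known partners of CHCHD2 held 48 genes in all. Of these, 10 were tied to transcripts and tested, and the others were not analysed here. In edgeR's quasi-likelihood test, 6 of the 10 were higher in the IPs at an adjusted p under 0.05, none was lower and 4 did not pass. When tests were limited to features with 50 or more counts in 2 libraries, edgeR called 9 of the 10, with AIFM1 among them as lower in the IPs. The background was 2.29% higher and 1.48% lower among all 43815 genes and transcripts tested, and 30.0% higher and 26.5% lower among the 1673 tied genes. The median log2 fold change of the 10 was 0.95, against 0.83 over the tied genes and 0.10 over all tested. Since names were available only for genes with small p-values in the study's test, the count over the list is not independent evidence of its direction. None of the 6 calls held when any 1 of IP replicates 1, 2 and 3 was left out (0 of 10 called by edgeR, 10 of 10 at an unadjusted p under 0.05) or with limma-voom (0 of 10 called), while DESeq2 called 10 of 10, with AIFM1 and SMAD4 as lower in the IPs. With the labels' assignment of the input all 10 changed sign and 0 of 10 were called.

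Of 5 tied genes in the twin CX9C family of 21, 4 were higher in the IPs. NDUFB7, a subunit of respiratory complex I, had 884, 819 and 792 TPM in the IPs, against 401 TPM in the input (log2 fold change 1.39, SE 0.12, adjusted p = 0.0291, edgeR). NDUFS5, another complex I subunit, had 1761, 1772 and 1824 TPM in the IPs, against 1032 TPM in the input (log2 fold change 1.13, SE 0.13, adjusted p = 0.0379, edgeR). In both genes every IP was above the input, as it was, in CPM, in 29.3% of all genes and transcripts tested and in 51.9% of the tied genes, while every IP was below the input in 33.4% of all tested and in 48.1% of the tied genes.

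CHCHD1, a component of the mitochondrial ribosome, had 241, 244 and 251 TPM in the IPs, against 113 TPM in the input (log2 fold change 1.45, SE 0.14, adjusted p = 0.0329, edgeR). UQCRH, a subunit of complex III, had 1177, 1101 and 1098 TPM in the IPs, against 741 TPM in the input (log2 fold change 0.94, SE 0.11, adjusted p = 0.0394, edgeR). COX17, a copper chaperone of cytochrome c oxidase, had 464, 380 and 388 TPM in the IPs, against 242 TPM in the input and did not pass (log2 fold change 1.09, SE 0.18, adjusted p = 0.0564, edgeR). Every IP was above the input in these 3 genes too, and the lowest input level among them was 113 TPM.

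Among the small TIM chaperones both tied genes of 5 were higher in the IPs. TIMM8B had 441, 386 and 376 TPM in the IPs, against 262 TPM in the input (log2 fold change 0.93, SE 0.13, adjusted p = 0.0476, edgeR), and TIMM13 had 169, 165 and 143 TPM in the IPs, against 103 TPM in the input (log2 fold change 0.96, SE 0.12, adjusted p = 0.0422, edgeR). The call of TIMM8B was lost with median-ratio scaling (adjusted p = 0.0503) and with no filter on low counts (adjusted p = 0.054). MTX2, an outer membrane partner of MICOS and the 1 tied gene of that list of 11, had 148, 159 and 172 TPM in the IPs, against 104 TPM in the input and did not pass (log2 fold change 0.95, adjusted p = 0.0756, edgeR).

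The 2 tied genes of the 14 import and known partners lay the other way. AIFM1, the flavoprotein that anchors CHCHD4, had 21.6, 26.3 and 17.5 TPM in the IPs, against 76.1 TPM in the input (log2 fold change -1.54, SE 0.23, adjusted p = 0.0511, edgeR). SMAD4, the shared mediator of TGF-β and BMP signalling, had 14.5, 20.9 and 16.1 TPM in the IPs, against 55.7 TPM in the input (log2 fold change -0.96, SE 0.20, adjusted p = 0.0905, edgeR). Neither passed the test, but AIFM1 did under the limit of 50 or more counts in 2 libraries (adjusted p = 0.0287, edgeR). COX4I2 and RBPJ were not analysed here.

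Set beside these genes, CHCHD2 lay within their range in the IPs and below all of them in the input. Its mean of 468 ± 25.6 TPM (SD, n = 3) in the IPs was above that of 7 of the 10 list genes, whose means ran between 17.2 and 1786 TPM. In the input it had 0.25 TPM, while the lowest list gene had 55.7 TPM and 1192 reads was the smallest count. The ratios of mean IP to input CPM of the list genes were 0.344 to 2.72. With only 1 input library, its spread between cultures is unknown.

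**Figure D3:**
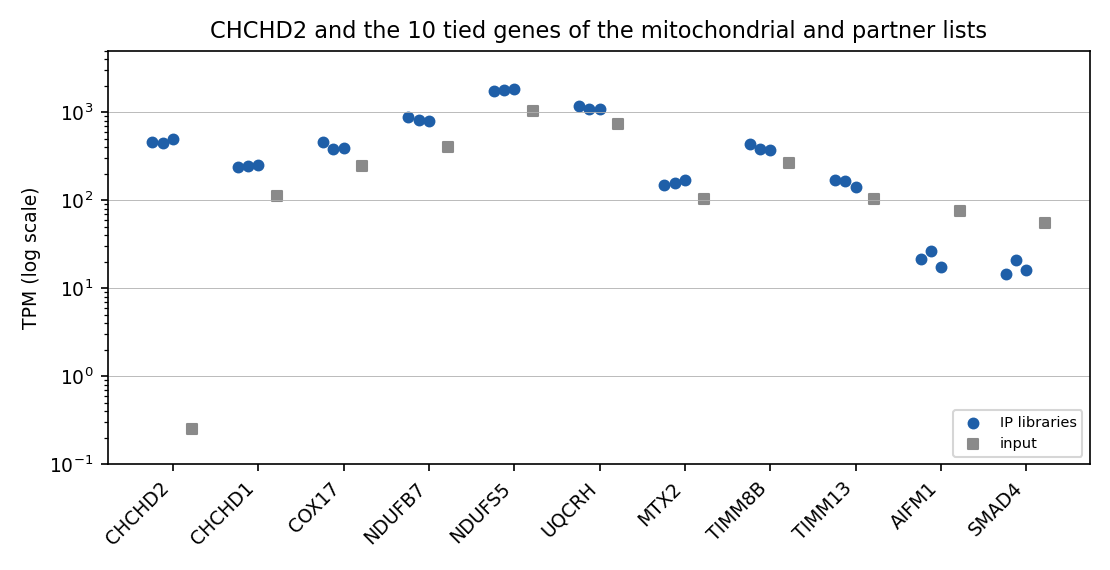
TPM on a log axis of CHCHD2 and of the 10 tied genes of the mitochondrial and partner lists, with circles for the 3 IP libraries and a square for the input. The list genes have input levels of 55.7 to 1032 TPM, and CHCHD2 has 0.25 TPM.

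The genes with the pattern most like CHCHD2 were found by the Euclidean distance between profiles of log2(CPM + 0.1), each centred on its mean over the 4 libraries, among 1669 other tied genes with a mean of at least 1 CPM in the IPs. The likeness rests on 4 libraries, 3 of which are replicates. The median distance was 8.11, and the 10 nearest genes lay at 1.86 to 3.34. The nearest was ZNF667-AS1, a long noncoding RNA antisense to ZNF667, at a distance of 1.86. It had 41.7, 45.7 and 36.1 CPM in the IPs, against 0.0494 CPM in the input, which rests on 2 reads. The library kit is not stated to keep strand, so reads of ZNF667-AS1 and its partner cannot be told apart where they overlap.

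Of the 10, 5 were HOX genes, which encode the homeodomain factors that specify position along the body axis. They were HOXA7 and HOXA9 on chromosome 7, HOXB5 and HOXB7 on chromosome 17 and HOXC10 on chromosome 12. HOXA9 had 60.0, 66.1 and 64.6 CPM in the IPs, against 0.198 CPM in the input, a ratio of 322 on 8 input reads (Poisson interval 163 to 745). HOXA7 had 21.8, 20.9 and 22.9 CPM in the IPs, against 0 reads in the input, which makes it at least 295-fold higher at a floor of 3 reads, the one-sided limit of a count of 0. HOXB5, with 12.3, 12.0 and 10.9 CPM in the IPs, against 0 reads in the input, was at least 158-fold higher at the same floor. HOXB7 averaged 15.3 ± 0.302 CPM and HOXC10 averaged 10.2 ± 0.994 CPM in the IPs (SD, n = 3), on 2 and 1 reads in the input. That the IPs lay above the input in these genes follows from the way they were picked.

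The remaining 4 were 2 secreted WNT ligands, ATOH1 and a lysosomal protease. WNT1, which marks the midbrain-hindbrain boundary and the roof plate, had 49.3, 62.0 and 52.4 CPM in the IPs, against 0.296 CPM in the input, a ratio of 184 on 12 input reads (Poisson interval 105 to 356). WNT10A averaged 19.6 ± 2.87 CPM in the IPs (SD, n = 3), with 4 reads in the input. CTSF, which encodes cathepsin F, had 15.4, 21.6 and 13.5 CPM in the IPs, against 0 reads in the input, at least 227-fold higher at the floor of 3 reads. ATOH1 itself was the seventh in order, at a distance of 2.91.

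CHCHD2 differed from all 10 in its level in the IPs. On the per-length scale it had 449 to 497 TPM there, while the nearest genes ranged between 6.08 TPM (HOXC10) and 69.0 TPM (ZNF667-AS1). Promoter windows were on hand for 7 of the 10, with 16 (CTSF) to 29 (WNT1) CpG dinucleotides, against 21 in the CHCHD2 window and a median of 11 over all windows. The order depends on the pseudocount, since input levels near 0 enter through it. With 1 CPM in place of 0.1 CPM, 4 of the 10 genes were shared with the list given here.

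**Figure D4:**
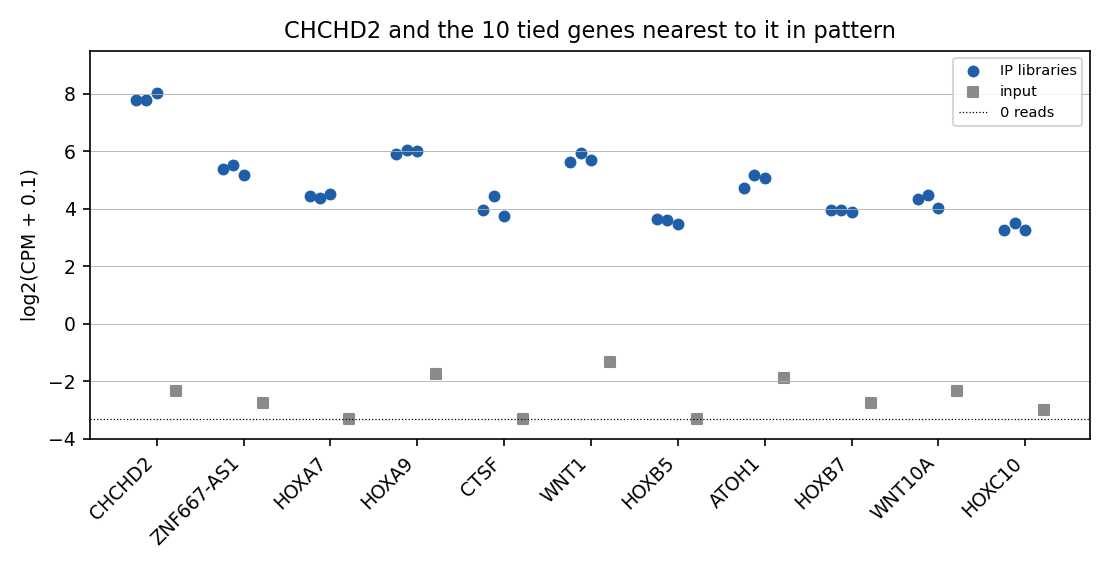
Level as log2(CPM + 0.1) of CHCHD2 and of the 10 tied genes nearest to it in pattern, with circles for the 3 IP libraries, a square for the input and a dotted line at 0 reads. CHCHD2 has the highest IP levels of the 11 genes, at 219 to 260 CPM, and its 4 input reads lie within the 0 to 12 reads of the others.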

How the data were processed

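TRAP-seq libraries were prepared by the authors with SMART-Seq v4 and Nextera XT and sequenced as 75 bp single reads. The authors quantified 69548 hg19 UCSC known gene transcripts with Salmon 0.8.2. Per the file headers, each deposited table gives estimated counts, which need not be whole, and TPM, which the authors scaled for effective length and library. The tables name transcripts only. Neighbouring transcripts were summed to a gene where their mean count (within 2%) and log2 ratio (within 1e-05, or 0.0001 where it was 7 or more) equalled a row of the study's differential expression table. Only the first 1998 rows, ordered by p-value, were on hand, and 1673 genes were tied. Its fold changes and p-values were used for names and for the check of the input, and are not reported.

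Estimated counts were rounded, filtered with filterByExpr, scaled by TMM and tested with edgeR 4.0.16 (quasi-likelihood, Benjamini-Hochberg adjustment over all 43815 genes and transcripts, threshold 0.05) in R 4.3.3. The 3 IPs come from separate differentiations and the spread is theirs alone, because there is 1 input. CPM are counts over the TMM-scaled library size, times 1000000. DESeq2 1.42.0 with a local dispersion trend and limma 3.58.1 (voom) were alternatives. The scripts were tested on simulated data. Those data had less spread than edgeR estimated here (common coefficient of variation 0.947), so they check the code and not the calls. Libraries held 34603230 to 41173019 counts, and Poisson intervals and floors (3 reads) cover counting error only.

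Named genes are CHCHD2, the transcripts in the 5 rows on each side, every tied member of the lists, the 10 nearest tied genes in pattern, tied genes with at most 5 input reads and at least 100 CPM in the IPs, ATOH1 and GAPDH. The 3 untied transcripts given beside these last were named after their values were seen. CHCHD2 and the lists were chosen with earlier results of these data known.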

Additional observations from a re-analysis of the deposited data

How the results depend on the processing

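The ratio of CHCHD2 was 2416 with library size alone, 2296 with median-ratio size factors, 1871 by TPM and 2233 to 2438 leaving out 1 IP. Taking each transcript alone or a floor of 3 reads could not move it, since CHCHD2 rests on 1 transcript and has 4 input reads. With the labels' own assignment of the input it was 0.732, below 1, because another library then stands as the input.

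Counts of calls were less stable. Higher and lower calls, 1005 and 647 in edgeR, were 1864 and 1146 with at least 50 counts in 2 libraries, 5783 and 3992 with DESeq2 (local trend), 5800 and 4004 with DESeq2 and a length offset, and 5459 and 2821 with DESeq2 and a mean trend, an alternative chosen after seeing the data. The default parametric trend of DESeq2 was not used, since it converged or fell back to the local trend depending on the number of computing threads, and the calls moved with it. They were 0 and 0 with limma-voom (3790 and 6408 at an unadjusted p under 0.05), 0 and 0 leaving out any 1 IP (3572 to 4266 and 3129 to 3670 unadjusted, edgeR), and 0 and 0 with the labels' assignment (1033 and 231 unadjusted, edgeR). Of the 10 list genes, 6 were called in edgeR, 9 with at least 50 counts in 2 libraries, 10 in each of the 3 DESeq2 fits, and 0 with limma-voom, leaving out any 1 IP or with the labels' assignment. All 10 had an unadjusted p under 0.05 in these fits except with the labels' assignment, where none did.

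With the labels' assignment each list gene changed sign, to log2 fold changes of 0.79 (AIFM1), -0.23 (CHCHD1), -0.46 (COX17), -0.03 (MTX2), -0.38 (NDUFB7), -0.18 (NDUFS5), 0.68 (SMAD4), -0.31 (TIMM13), -0.39 (TIMM8B) and -0.27 (UQCRH). Of the 10 genes nearest in pattern, 4 were shared with a pseudocount of 1 CPM, 7 with 0.01 CPM, 8 by TPM and 10 with a minimum of 10 CPM. No paired analysis was possible because there is 1 input library. That library limits every value here, and the 4 reads of CHCHD2 in it limit the size of its ratio.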
